A study of Mus musculus with 6 samples.

Results

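The tissue inhibitors of metalloproteinases Timp1, Timp2, Timp3 and Timp4, the matrix metalloproteinases Mmp2, Mmp3, Mmp12 and Mmp14, and the related proteases Adamts1 and Adamts4 were followed in mouse retina. These 10 genes were taken by the gene name printed for each probe in the scanner files, and all 10 were among the 26141 genes or gene names tested. The rule uses names and no measured value, but the genes were chosen with earlier results of these data known. They were read by 12 probes of 60 bases, 1 for each of 8 genes and 2 each for Timp2 and Mmp12.

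Retinas came from male C57BL/6 mice aged 8 weeks, 7 days after phosphate-buffered saline (PBS) or titanium dioxide nanoparticles had been injected into the vitreous of the right eye. The nanoparticles were given at a dose called PTC in the labels and at 10 times that dose, called 10PTC, with 12 mice per group. Each tube held 4 pooled retinas, and 3 pools per dose were each hybridised in Cy5 against PBS control RNA in Cy3, on 6 arrays with no dye swap. All values are therefore log2 ratios of treated over PBS within an array, where 0 is no difference. Any effect of the dyes on a probe, and the spread of the control itself, cannot be told apart from treatment in the comparisons with PBS. The p-values come from limma and measure the spread between arrays of separate pools. In these bulk samples, fewer cells of a type and less RNA per cell cannot be told apart.

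Matrix metalloproteinases are zinc enzymes that cut collagens, laminins, proteoglycans and signalling proteins outside the cell. The Timp proteins bind their active sites and block them, and Timp3 also blocks many ADAM and ADAMTS proteases. ADAMTS enzymes are secreted proteases of the same wider family, several of which cut the proteoglycans of the matrix. In the retina, Timp3 is a component of the membrane under the pigment epithelium, and Timp1 is known to be made by reactive glia.

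Between 71.0% and 85.5% of gene spots per array stood well above background in a channel. PTC replicates 1 and 2 were on slide 1, while PTC replicate 3 shared slide 2 with the 10PTC arrays. At PTC, 4399 of 26141 genes were called higher (16.8%) and 4247 lower (16.2%) at an adjusted p of 0.05. At 10PTC, 3761 were called higher (14.4%) and 3468 lower (13.3%). With each array centred on its median in place of loess, 66.0% of the calls at PTC and 65.8% at 10PTC were higher, against 50.9% and 52.0% with loess. The counts of the members and of every gene list are to be read against these shares. The tissue label was checked against 10 photoreceptor genes, all measured, whose summed level was 497306 to 562202 intensity units in PBS, 473923 to 631445 at PTC and 571840 to 607910 at 10PTC. Genes of skeletal muscle and fat were also measured in the PBS channel and had a lower median in the treated channel on every array, and those of fibroblasts were near 0 on PTC replicates 1 and 2 and lower on the other arrays, with values given beside Mmp2.

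Timp1 and Adamts1 were the members called higher at both doses, so the 250 bases upstream of their annotated starts are shown (RefSeq, GRCm38.p6, strand of the gene). Timp1 lies at chrX:20869916-20870165 on the plus strand and Adamts1 at chr16:85803114-85803363 on the minus strand. Capitals mark matches on either strand to the letters of 4 motifs. AP-1 was searched as TGANTCA. The STAT letters were TTCNNNGAA. For Ets factors AGGAAG was used. The TATA box was taken as TATAAA. No match overlapped another.
Timp1: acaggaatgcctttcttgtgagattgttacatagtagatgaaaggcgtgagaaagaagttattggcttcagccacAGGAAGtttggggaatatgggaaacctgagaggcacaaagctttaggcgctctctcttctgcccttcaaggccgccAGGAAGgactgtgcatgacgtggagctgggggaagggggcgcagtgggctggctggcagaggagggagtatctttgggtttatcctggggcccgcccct
Adamts1: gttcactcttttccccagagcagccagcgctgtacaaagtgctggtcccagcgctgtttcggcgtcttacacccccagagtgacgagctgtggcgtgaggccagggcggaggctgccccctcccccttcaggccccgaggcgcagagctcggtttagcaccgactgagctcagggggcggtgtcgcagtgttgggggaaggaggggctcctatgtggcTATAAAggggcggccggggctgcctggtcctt

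The Timp1 window held 2 Ets matches, starting 175 and 99 bases before the start, and the Adamts1 window held a TATA match 32 bases before it. Neither window held the AP-1 or the STAT letters. Of 32851 windows of the same length in the table, 29.5% held the Ets letters, 12.4% the TATA letters, 6.75% the AP-1 letters and 7.02% the STAT letters. Windows were listed for 8 of the 10 members, all but Mmp2 and Adamts4, with 2 for Mmp12. The Ets letters were in a window of 6 members, the TATA letters of 2 (Mmp3 and Adamts1), the AP-1 letters of 2 (Mmp3 and Mmp12) and the STAT letters of 0. These are matches of letters and not shown sites.

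Among the 12 probes, the sequences of 2 bear on how a value is read. The second Timp2 probe is shown because it gave higher ratios than the brighter one, and the used Mmp12 probe because it lay close to background. They are printed in lower case on the strand of the probe.
Timp2, second probe: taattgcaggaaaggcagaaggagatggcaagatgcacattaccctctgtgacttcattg
Mmp12, used probe: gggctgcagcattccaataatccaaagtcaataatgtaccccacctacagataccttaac

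By the design's mm9 coordinates, the second Timp2 probe spans 6778 bases at chr11:118171964-118178741 on the minus strand, so it crosses an intron. The brighter Timp2 probe lies within 60 bases at chr11:118163146-118163205. The Mmp12 probes lie at chr9:7352935-7352994 (shown) and chr9:7360373-7360432. The sources used here do not state whether the member probes fall in coding or untranslated exons. The Timp1 probe holds the polyadenylation letters AATAAA from base 37, as do 12.6% of the 39429 probes.

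Of the 10 members, 3 were called higher and 1 lower at PTC, which is 30.0% and 10.0%, beside 16.8% and 16.2% of all genes. At 10PTC, 2 were called higher and 1 lower, 20.0% and 10.0%, beside 14.4% and 13.3%. With 10 genes, 1 member is 10.0%. The median log2 ratio of the members was 0.13 at PTC and 0.01 at 10PTC, where the median of all genes was 0.00 at each dose. Most of the family therefore lay near 0, and Timp1 stood far from the others.

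**Figure D1:**
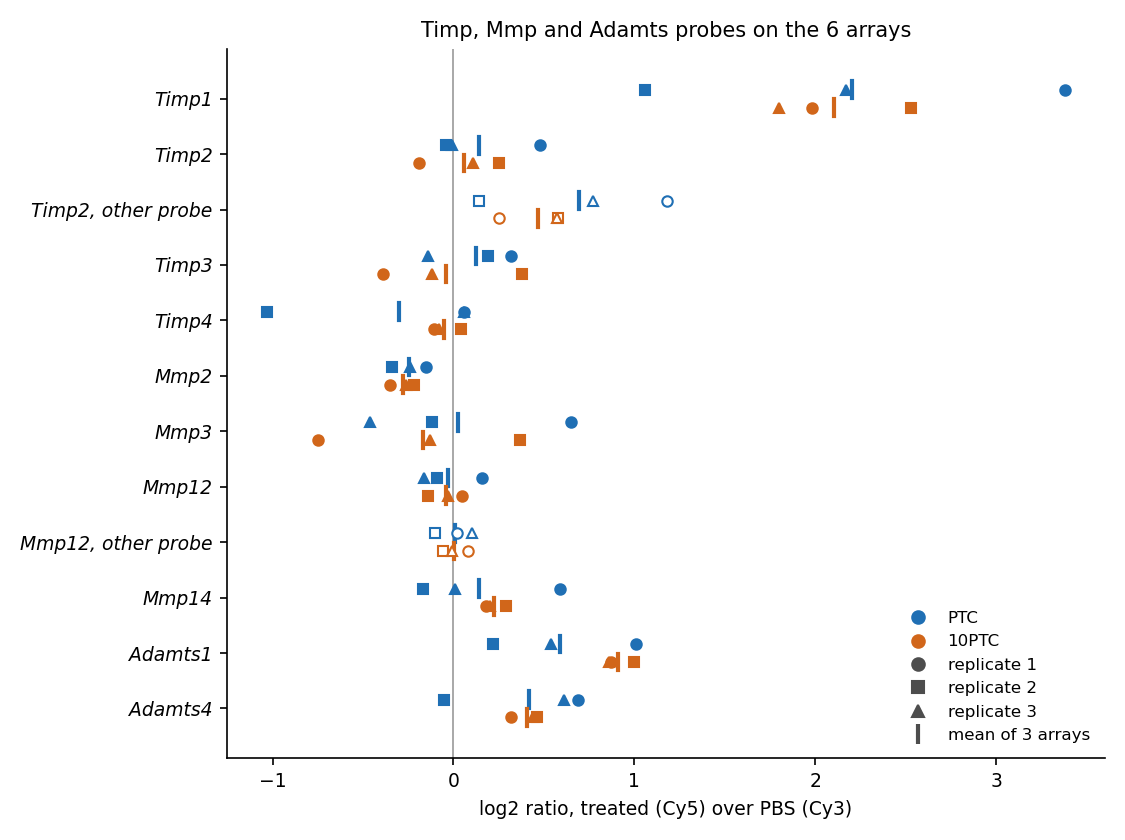
The log2 ratio of treated over PBS is plotted for each of the 12 probes on each of the 6 arrays, with PTC in blue, 10PTC in orange, symbols for replicates and a bar at the mean of 3 arrays; open symbols are probes not used for the gene. Timp1 lies between 1.06 and 3.38, Adamts1 is above 0 and Mmp2 below 0 on every array, and the other members scatter around 0 or a little above it.

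Timp1, a secreted inhibitor of most metalloproteinases, was the member with the highest ratios. Its log2 ratio was 3.38, 1.06 and 2.17 in PTC replicates 1 to 3 and 1.98, 2.53 and 1.80 in 10PTC replicates 1 to 3. All 6 arrays lay well above 0, the PTC arrays enclosed the 10PTC arrays, and PTC replicate 1 was the highest and PTC replicate 2 the lowest. The mean was 2.20 ± 1.16 (SD, n = 3) at PTC, a 4.61-fold level, and 2.10 ± 0.38 (SD, n = 3) at 10PTC, a 4.30-fold level. Timp1 rose at PTC (SE 0.37, limma adjusted p = 0.00543) and at 10PTC (SE 0.37, adjusted p = 0.00833). Counted from the highest ratio it ranked 5 of 26141 genes at PTC and 7 at 10PTC. The probe lies at chrX:20451802-20451861 (mm9).

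The PBS channel of the Timp1 spot also differed between arrays. Its normalised log2 level was 9.49, 8.41 and 8.70 on the PTC arrays and 8.65, 8.87 and 8.55 on the 10PTC arrays. The treated channel was 12.87, 9.47 and 10.87 on the PTC arrays and 10.64, 11.40 and 10.35 on the 10PTC arrays. The array with the highest treated level thus had the highest PBS level, and the array with the lowest treated level the lowest. Before any correction, the scanner's Cy3 signals of this spot ran from 233 to 552 and its Cy5 signals from 630 to 7171. For Adamts1 the PBS level stayed between 10.82 and 10.93 on all 6 arrays. Why the control level of Timp1 moved with the treated one was not tested.

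**Figure D2:**
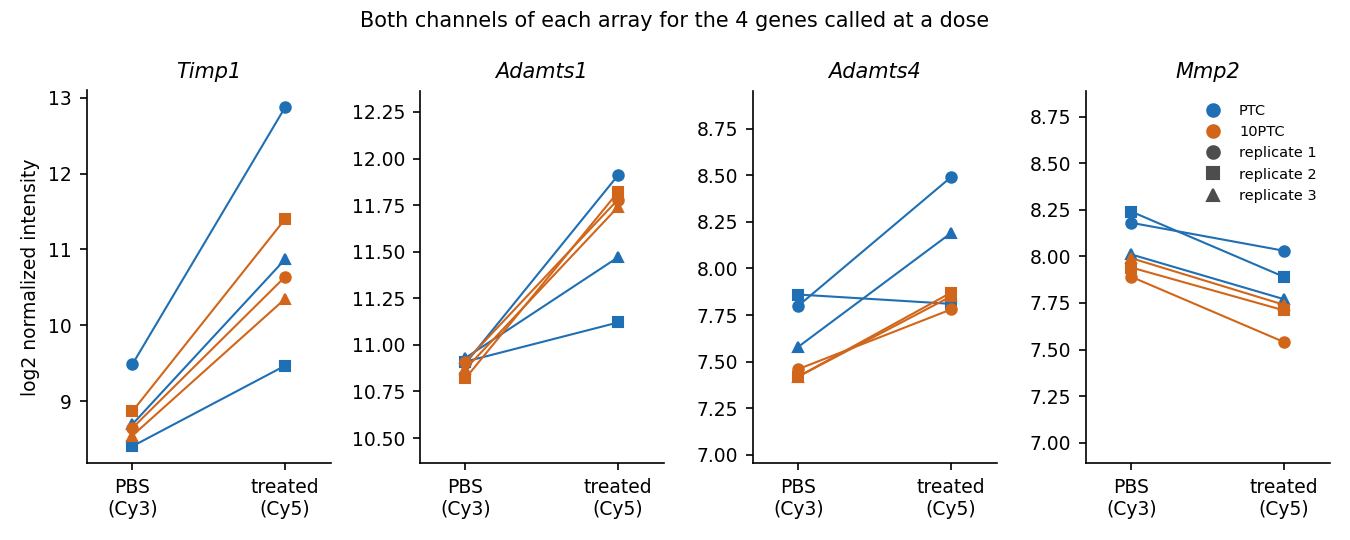
Normalised log2 intensity is plotted for the PBS channel (Cy3) and the treated channel (Cy5) of each array, joined by a line, for Timp1, Adamts1, Adamts4 and Mmp2, with PTC in blue, 10PTC in orange and symbols for replicates; each panel has its own scale. The Timp1 PBS level ranges from 8.41 to 9.49, while that of Adamts1 ranges from 10.82 to 10.93.

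With slide as a block the Timp1 values were 2.20 at PTC (adjusted p = 0.0187) and 2.13 at 10PTC (adjusted p = 0.0872), so that the call at 10PTC was lost. All 10PTC arrays were on slide 2, so this fit takes the slide effect from the PTC arrays alone. The 10PTC value is moved by that effect to a level between the slides, and takes on its error. A 10PTC call lost there, for this or another member, cannot show an effect of slide. Within slide 1, on 2 arrays, PTC gave 2.22 (adjusted p = 0.110). Slide 2 held 1 PTC array, so its PTC values are single measurements with no spread of their own. Calls counted elsewhere for PTC within slide 2 take the spread of the 10PTC arrays. Within slide 2, PTC gave 2.17 and 10PTC 2.10 (adjusted p = 3.88e-04). Without 10PTC replicate 1 the 10PTC value was 2.17 (adjusted p = 0.0589), and the PTC value was 1.62 without PTC replicate 1 and 2.78 without PTC replicate 2, called in either case.

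Timp2, an inhibitor that also takes part in the activation of Mmp2 at the cell surface, gave different values at its 2 probes. The brighter one, used for the gene, gave 0.48, -0.04 and -0.01 at PTC and -0.19, 0.25 and 0.11 at 10PTC. These arrays fall on either side of 0 at both doses. The probe that crosses the intron gave 1.18, 0.14 and 0.77 at PTC and 0.25, 0.58 and 0.57 at 10PTC, above 0 on all 6 arrays and above the brighter probe on each. The gene did not pass with the brighter probe (0.14 ± 0.29, adjusted p = 0.376, and 0.06 ± 0.22, adjusted p = 0.733; SD, n = 3, limma). The second probe, in a fit of all 39429 probes, rose at PTC (0.70 ± 0.52, adjusted p = 0.0180) and did not pass at 10PTC (0.46 ± 0.19, adjusted p = 0.0771). Under median centring of the arrays the brighter probe passed at both doses (0.36, adjusted p = 0.0349, and 0.34, adjusted p = 0.0342). The difference between the probes was not tested.

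Timp3, the inhibitor bound to matrix, gave 0.32, 0.19 and -0.14 at PTC and -0.39, 0.38 and -0.12 at 10PTC. Its arrays overlapped between doses and lay on both sides of 0. It did not pass at PTC (0.12 ± 0.24, SD, n = 3, limma adjusted p = 0.533) or at 10PTC (-0.04 ± 0.39, adjusted p = 0.841). Timp4, an inhibitor found mainly in heart and vessels, gave 0.06, -1.03 and 0.06 at PTC and -0.11, 0.04 and -0.08 at 10PTC. PTC replicate 2 alone stood apart, and there the PBS level was 8.20 against 6.70 to 6.94 on the other arrays. Timp4 did not pass at PTC (-0.30 ± 0.63, adjusted p = 0.263) or at 10PTC (-0.05 ± 0.08, adjusted p = 0.867). Without PTC replicate 2 its PTC value was 0.06. Its probe was well above background on every array, but outside PTC replicate 2 its PBS level was close to that of the used Mmp12 probe (6.39 to 6.68). Over the alternatives the PTC value of Timp4 ran from -0.63 to 0.06, and it passed in none. The Timp3 probe lies at chr10:85811696-85811755 and the Timp4 probe at chr6:115196120-115196179.

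Mmp2, the gelatinase that cuts denatured collagen and collagen of basement membranes, was the single metalloproteinase among the members that passed. It gave -0.15, -0.34 and -0.24 at PTC and -0.35, -0.22 and -0.26 at 10PTC. Every array lay below 0 and the doses overlapped. Mmp2 fell at PTC (-0.24 ± 0.10, SD, n = 3, a level of 0.844 of PBS, limma adjusted p = 0.0112) and at 10PTC (-0.28 ± 0.07, a level of 0.826, adjusted p = 0.00977). The fall was small, and the spread between arrays was smaller still. The call was lost at PTC without PTC replicate 3 (-0.25, adjusted p = 0.0519), and at 10PTC without 10PTC replicate 1 (-0.24, adjusted p = 0.0830) or 3 (-0.29, adjusted p = 0.0643). With slide as a block the values were -0.24 (adjusted p = 0.0332) and -0.28 (adjusted p = 0.0979), within slide 1 -0.25 (adjusted p = 0.217), and within slide 2 -0.24 on the single PTC array and -0.28 (adjusted p = 0.00717) at 10PTC. The probe lies at chr8:95376840-95376899.

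The medians of the fibroblast, skeletal muscle and fat lists lay below 0 at both doses, as Mmp2 did. The median of the pigment epithelium list lay above 0 (0.36 at PTC and 0.23 at 10PTC). The counts of these lists stand beside 16.8% of all genes higher and 16.2% lower at PTC, and 14.4% and 13.3% at 10PTC. Mmp2 is known to be expressed by fibroblasts, and 12 of 12 fibroblast and sclera genes were measured. Of these, 5 fell and 0 rose at PTC (median -0.39), and 9 fell and 0 rose at 10PTC (median -1.08). Their summed level was 36035 to 40761 intensity units in PBS, 12289 to 33146 at PTC and 12194 to 22583 at 10PTC. Examples are Col3a1, a fibrillar collagen (-1.68 ± 0.58 at PTC and -1.97 ± 0.85 at 10PTC), Pi16 (-3.08 ± 0.76 and -2.58 ± 0.93), Mfap5 (-1.21 ± 0.29 and -1.19 ± 0.29) and Dpt (-0.41 ± 0.11 and -0.41 ± 0.15). All 12 skeletal muscle genes fell at both doses (medians -2.92 and -2.23), with summed levels of 74414 to 75786 in PBS, 8899 to 14077 at PTC and 14892 to 17343 at 10PTC. Creatine kinase Ckm lay at -2.14 ± 0.15 and -1.80 ± 0.12, and Acta1, Tnnc2 and Mb between -2.08 and -2.95. Of 6 fat genes, 6 fell at PTC and 5 at 10PTC (medians -1.14 and -1.28), among them Adipoq, Fabp4, Plin1 and Cfd, with summed levels of 6514 to 7364 in PBS, 1901 to 2544 at PTC and 1887 to 1961 at 10PTC. No gene of the fibroblast, skeletal muscle and fat lists was below background throughout. Array by array, the fibroblast median was -0.06, -0.20 and -1.06 at PTC and -1.27, -0.66 and -1.16 at 10PTC. The 2 arrays where it was near 0 were those of slide 1, and all arrays of slide 2, PTC replicate 3 among them, were lower. The fibroblast counts of the doses therefore differ by slide as well as by dose. On the 2 arrays of slide 1, Mmp2 lay at -0.15 and -0.34. The part of these tissues in the Mmp2 result was not tested.

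Mmp3, or stromelysin 1, which cuts many matrix proteins and activates other proteases, gave 0.65, -0.12 and -0.46 at PTC and -0.75, 0.37 and -0.13 at 10PTC. The spread covered 0 at both doses, and it did not pass (0.02 ± 0.57, limma adjusted p = 0.947, and -0.17 ± 0.56, adjusted p = 0.632; SD, n = 3). Mmp14, the membrane-bound metalloproteinase that activates Mmp2, gave 0.59, -0.17 and 0.01 at PTC and 0.18, 0.29 and 0.20 at 10PTC. The 10PTC arrays lay close together above 0, while the PTC arrays enclosed them. Mmp14 did not pass at PTC (0.14 ± 0.40, adjusted p = 0.412) or at 10PTC (0.22 ± 0.06, adjusted p = 0.223), where the spread was taken over both doses. With 10PTC fitted alone the same mean passed (adjusted p = 0.0123), as it did without PTC replicate 1 (adjusted p = 0.0144). The probes of these genes lie at chr9:7455751-7455810 for Mmp3 and chr14:55058775-55058834 for Mmp14.

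Mmp12, the elastase of macrophages, was close to background. Its used probe was well above background on 4 of 6 arrays, 1 at PTC and 3 at 10PTC, and its other probe on 0 of 6. Those 4 arrays were the arrays of slide 2. The used probe gave 0.16, -0.09 and -0.16 at PTC and 0.05, -0.14 and -0.03 at 10PTC, all near 0. It did not pass (-0.03 ± 0.17, limma adjusted p = 0.763, and -0.04 ± 0.09, adjusted p = 0.697; SD, n = 3). A change may not be detectable at this signal. Over the alternatives the PTC value ran from -0.47, with the scanner's processed signals, to 0.03, and passed in none. In the authors' deposited values the PTC arrays stood at 0.17, -1.33 and -0.18. Under median centring the 10PTC value was -0.30 (adjusted p = 0.0113). The genes of microglia and macrophages, which are known to make this enzyme, rose in the same arrays, as given with the marker lists.

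Adamts1, a secreted protease that cuts proteoglycans such as aggrecan and versican, rose at both doses. It gave 1.01, 0.22 and 0.54 at PTC and 0.87, 1.00 and 0.86 at 10PTC. All 6 arrays were above 0, with the 10PTC arrays close together and inside the upper part of the PTC range. The mean was 0.59 ± 0.40 (SD, n = 3) at PTC, a 1.51-fold level (limma adjusted p = 0.0130), and 0.91 ± 0.08 at 10PTC, a 1.88-fold level (adjusted p = 0.00425). From the highest ratio it ranked 587 of 26141 genes at PTC and 149 at 10PTC. The PTC value was 0.38 without PTC replicate 1 and 0.78 without PTC replicate 2, and its call was lost without PTC replicate 3 (0.61, adjusted p = 0.0514) and with PTC fitted alone (0.59, adjusted p = 0.0582). With slide as a block it was 0.58 (adjusted p = 0.0372) at PTC and 0.95 (adjusted p = 0.0583) at 10PTC, within slide 1 0.61 (adjusted p = 0.162), and within slide 2 0.54 on the single PTC array and 0.91 (adjusted p = 2.48e-04) at 10PTC. The probe lies at chr16:85795044-85795103.

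Adamts4, known as an aggrecanase, gave 0.69, -0.05 and 0.61 at PTC and 0.32, 0.46 and 0.44 at 10PTC. Of the 6 arrays, 5 were above 0. Its mean was 0.42 ± 0.40 (SD, n = 3) at PTC, 1.34-fold, and 0.40 ± 0.07 at 10PTC, 1.32-fold. It rose at PTC (limma adjusted p = 0.0427) and did not pass at 10PTC (adjusted p = 0.0539), values that lie on either side of the threshold with nearly equal means. The PTC call held in 11 of 24 alternatives, of which 1 rests on the single PTC array of slide 2, was lost without any array but PTC replicate 2 (adjusted p = 0.0672 to 0.189), and the value was 0.28 without PTC replicate 1 and 0.65 without PTC replicate 2. At 10PTC the gene passed in 7 of 23 alternatives. With slide as a block it was 0.46 (adjusted p = 0.0550) at PTC and 0.26 (adjusted p = 0.409) at 10PTC, within slide 1 0.32 (adjusted p = 0.359), and within slide 2 0.61 on the single PTC array and 0.40 at 10PTC (adjusted p = 0.00273). The probe lies at chr1:173189952-173190011.

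The doses were compared by testing the difference itself. PTC replicates 1 and 2 were on slide 1 and all 10PTC arrays on slide 2, so a difference between slides may be part of these values. Of the members, 0 of 10 passed, and of all genes 0 of 26141 (0.00%). At an unadjusted p of 0.05, limma gave 2132 genes and 0 members. The difference of 10PTC over PTC was -0.10 for Timp1, with a 95% interval from -1.32 to 1.12, and 0.32 for Adamts1, from -0.10 to 0.74. For Mmp2 the difference was -0.03, from -0.20 to 0.14, and for Adamts4 -0.01, from -0.44 to 0.41. The Timp1 interval therefore still allowed more than a 1-unit change in either direction, while that of Mmp2 was narrow. For the other 6 members the differences lay between -0.19 (Mmp3) and 0.25 (Timp4). Both comparisons with PBS may share control RNA, so their values are set side by side and no agreement between them is counted.

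**Figure D3:**
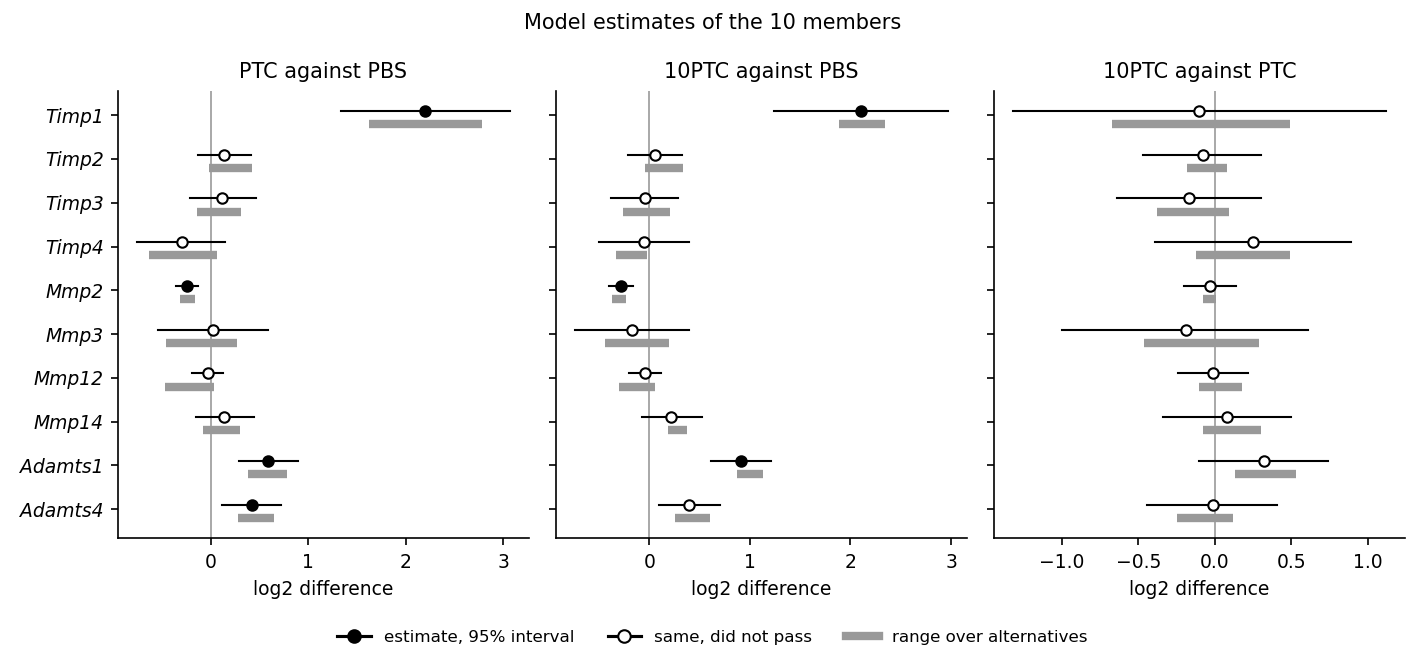
Model estimates of the log2 difference are plotted for the 10 members in the 3 comparisons, with 95% intervals as thin lines, filled points for those that passed, and grey bars for the range over the alternative analyses; the third panel has its own scale. Timp1 and Adamts1 lie above 0 and Mmp2 below 0 in both comparisons with PBS over the whole grey range, and every interval of the comparison between doses includes 0.

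Other members of the protease families were called in both directions. Of 19 further metalloproteinase genes listed, 13 were measured. At PTC, 1 was higher and 4 lower (median -0.03), beside 16.8% and 16.2% of all genes. At 10PTC, 2 were higher and 2 lower (median 0.03), beside 14.4% and 13.3%. Mmp17, a membrane-anchored enzyme, fell at PTC (-0.49 ± 0.16, limma adjusted p = 0.00314) and 10PTC (-0.26 ± 0.10, adjusted p = 0.0294), and so did Mmp24, another membrane enzyme of neural tissue (-0.23 ± 0.14 and -0.32 ± 0.04). Mmp19 rose at PTC (0.23 ± 0.14) and was at 0.09 ± 0.07 at 10PTC, where it did not pass, while Mmp11 passed at 10PTC (0.29 ± 0.09) and was at 0.20 ± 0.26 at PTC. Of 16 further Adamts genes measured of 17, 3 were higher and 3 lower at PTC, beside 16.8% and 16.2% of all genes, and 2 were higher and 1 lower at 10PTC, beside 14.4% and 13.3%. Adamts19 rose by 0.18 ± 0.04 and 0.74 ± 0.11 (adjusted p = 0.0298 and 6.39e-04), and Adamts2, which trims procollagen, lay at -0.34 ± 0.32 and -0.53 ± 0.07 (adjusted p = 0.0459 and 0.0129). Adamts17 (0.26 ± 0.08) and Adamts15 (-0.51 ± 0.17) passed at PTC, with 0.17 ± 0.14 and -0.20 ± 0.26 at 10PTC.

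Membrane sheddases and the plasminogen system activate or accompany metalloproteinases. Of 8 ADAM sheddases measured of 9, 3 rose and 1 fell at PTC, beside 16.8% and 16.2% of all genes. At 10PTC, 1 rose and 1 fell, beside 14.4% and 13.3%. Adam9 rose at both doses (0.27 ± 0.05 and 0.30 ± 0.14), Adam10 (0.23 ± 0.11) and the leukocyte gene Adam8 (0.73 ± 0.77) at PTC, and Adam19 fell at both (-0.19 ± 0.12 and -0.23 ± 0.04). Of 7 plasminogen system genes measured of 9, 4 rose at PTC (median 0.26) and 1 at 10PTC (median 0.24), and 0 fell. These counts are to be read beside the same shares. Plat, the tissue plasminogen activator, rose by 0.38 ± 0.33 at PTC and 0.84 ± 0.06 at 10PTC (limma adjusted p = 0.0328 and 0.00331). The urokinase receptor gene Plaur (0.55 ± 0.58) and Serpinf2, the plasmin inhibitor (0.20 ± 0.15), passed at PTC.

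Other regulators and matrix substrates of the enzymes were counted in the same way. Of 13 regulators measured of 14, 4 rose and 2 fell at PTC, beside 16.8% and 16.2% of all genes. At 10PTC, 2 rose and 2 fell, beside 14.4% and 13.3%. A2m, a broad protease trap in plasma, rose by 1.02 ± 0.65 and 0.79 ± 0.10 (limma adjusted p = 0.00921 and 0.0270). Bsg, which induces metalloproteinases in neighbouring cells, rose by 0.20 ± 0.00 and 0.30 ± 0.09, and the proteoglycan gene Spock2 fell (-0.54 ± 0.15 and -0.49 ± 0.07). Cd44, the hyaluronan receptor, rose at PTC (0.74 ± 0.65) and was at 0.46 ± 0.15 at 10PTC. Of 20 matrix genes measured of 20, 4 rose and 4 fell at PTC, beside 16.8% and 16.2% of all genes, and 3 rose and 2 fell at 10PTC, beside 14.4% and 13.3%, so these counts are no result about the list. Agrn, a proteoglycan of basement membranes, rose by 0.82 ± 0.47 and 0.80 ± 0.05, and Sparc, a collagen-binding glycoprotein, by 0.47 ± 0.27 and 0.37 ± 0.17. Tnr, a glycoprotein of perineuronal matrix, fell (-0.59 ± 0.19 and -0.50 ± 0.12), and Ncan, a neural proteoglycan that matrix proteases cut, fell at PTC (-0.32 ± 0.11) and was at -0.13 ± 0.01 at 10PTC.

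Timp1 is known to be induced by cytokines of the interleukin 6 family and by AP-1 transcription factors. The list for these signals also holds other cytokine and transcription factor genes, and 23 of its 24 genes were measured. Of these, 9 rose and 1 fell at PTC, beside 16.8% and 16.2% of all genes, and 13 rose and 0 fell at 10PTC, beside 14.4% and 13.3%. The list was made with earlier results of these data known, so these counts are no independent support. Their medians were 0.26 and 0.30. Osmr, the oncostatin M receptor, rose by 1.24 ± 0.58 and 1.16 ± 0.10 (limma adjusted p = 0.00344 and 0.00562), and Il6st, the signalling chain shared by the family, by 0.50 ± 0.22 and 0.56 ± 0.03. Socs3, a feedback gene of this pathway, rose by 1.12 ± 0.68 and 1.26 ± 0.02, and Fos, a subunit of AP-1, by 0.36 ± 0.16 and 0.58 ± 0.16. Among the listed ligands of the family, Cntf rose at both doses (0.78 and 0.68). Lif (0.13 and 0.16), Osm (-0.05 and 0.03) and Il11 (-0.02 and 0.10) did not pass, and Il6 was below the filter. By array the list median was 0.64, 0.11 and 0.17 at PTC and 0.32, 0.28 and 0.29 at 10PTC. It was highest on PTC replicate 1 and lowest on PTC replicate 2, as Timp1 was. PTC replicate 3, at 2.17 in Timp1, had the next lowest median. At 10PTC the lowest median was on replicate 2, the array with the second highest Timp1 ratio. The part of these signals in the Timp1 result was not tested.

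**Figure D4:**
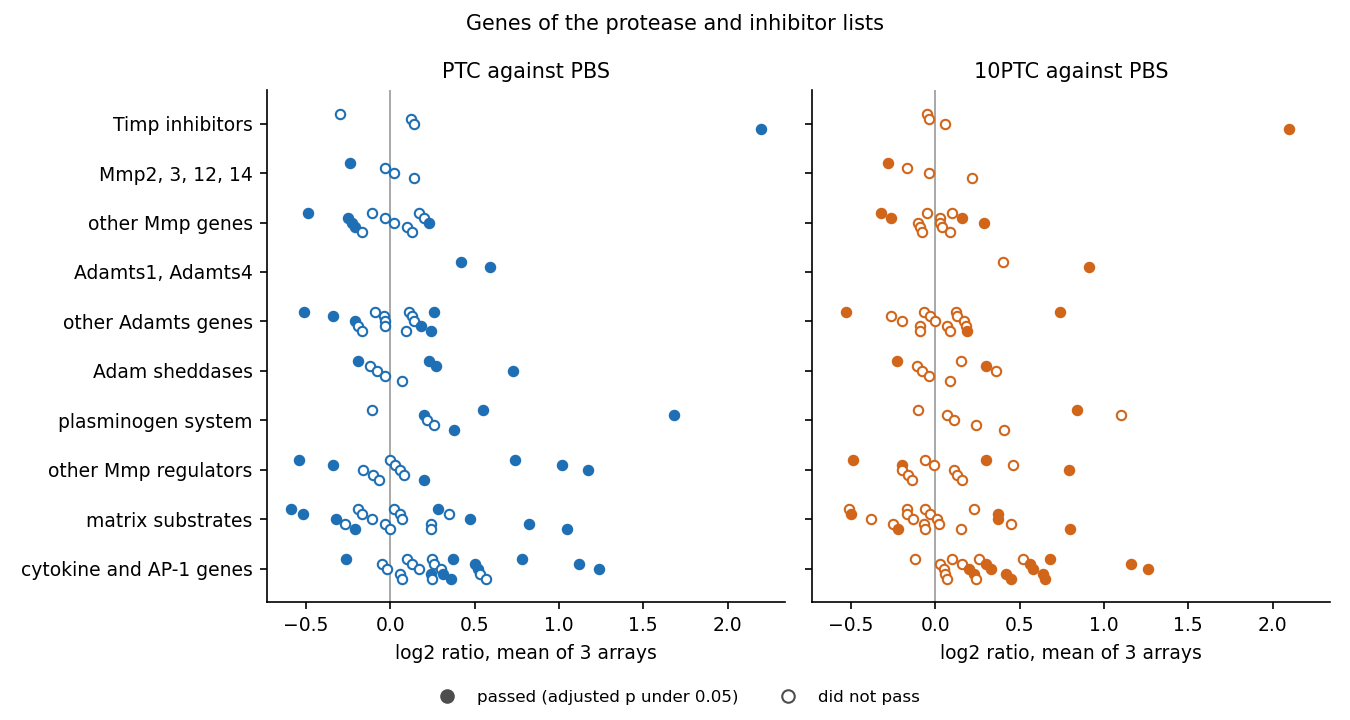
The mean log2 ratio of 3 arrays is plotted for each measured gene of 10 lists, at PTC on the left and 10PTC on the right; filled points passed an adjusted p of 0.05 and the vertical offset within a list has no meaning. Timp1 lies at 2.20 and 2.10, beyond every other gene drawn, and the further Mmp and Adamts genes lie within 1 log2 unit of 0.

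The genes whose ratios lay closest to those of Timp1 were found by the root mean square difference over the 6 arrays, among 21558 genes above background on every array. They were Serpina3n, a serine protease inhibitor of reactive glia (0.242 log2 units; means 2.45 at PTC and 2.04 at 10PTC), Lilrb4a, a myeloid receptor (0.312; 2.11 and 1.83), Clec7a, a receptor for fungal glucans on myeloid cells (0.378; 2.07 and 1.97), Lcn2, an iron-sequestering protein (0.422; 1.69 and 1.96), and Lyz1, a lysozyme (0.431; 2.67 and 2.20). For Adamts1 they were Apoe, Ifitm3, E2f6, Hsd17b2 and the transcript listed as ENSMUST00000068009, at 0.0950 to 0.116 log2 units. For Mmp2 they were the unnamed probe A_55_P2104761, Arf6, 5430440L12Rik, Retreg3 and Gm5365, at 0.0299 to 0.0339. A small ratio has many near neighbours, so the distances of different members are not to be compared.

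Markers of glia and of microglia and macrophages are given beside Timp1 and Adamts1. Of all genes, 16.8% were called higher and 16.2% lower at PTC, and 14.4% and 13.3% at 10PTC. Of 12 Müller glia and astrocyte genes, 6 rose and 2 fell at PTC (median 0.25) and 7 rose and 1 fell at 10PTC (median 0.36), with summed levels of 179224 to 200218 intensity units in PBS, 217649 to 254250 at PTC and 240231 to 257324 at 10PTC. Gfap, the filament protein of reactive glia, rose by 1.61 ± 0.62 and 1.44 ± 0.12, Apoe by 0.67 ± 0.30 and 0.86 ± 0.08, Dkk3 by 0.51 ± 0.15 and 0.52 ± 0.15, and Glul, the glutamine synthetase of Müller glia, fell (-0.64 ± 0.21 and -0.61 ± 0.08). Of 12 microglia and macrophage genes, 10 rose at PTC (median 0.60) and 9 at 10PTC (median 0.49), and 0 fell. Their summed levels were 18010 to 22328 in PBS, 31708 to 35102 at PTC and 29244 to 30534 at 10PTC. Trem2 rose by 1.91 ± 0.80 and 1.63 ± 0.06, C1qa by 1.48 ± 0.62 and 1.31 ± 0.09, Cx3cr1 by 1.34 ± 0.47 and 1.07 ± 0.11, and Aif1 by 1.24 ± 0.52 and 1.08 ± 0.17. By array the microglia median was 0.98, 0.43 and 0.61 at PTC and 0.56, 0.40 and 0.62 at 10PTC. The array with the highest Timp1 ratio had the highest microglia median, and 10PTC replicate 2, second in Timp1, had the lowest. The median of the Müller glia and astrocyte list was 0.43, 0.28 and 0.17 at PTC and 0.36, 0.28 and 0.44 at 10PTC. It was highest on 10PTC replicate 3, which had the lowest Timp1 ratio of that dose, and lowest on PTC replicate 3.

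**Figure D5:**
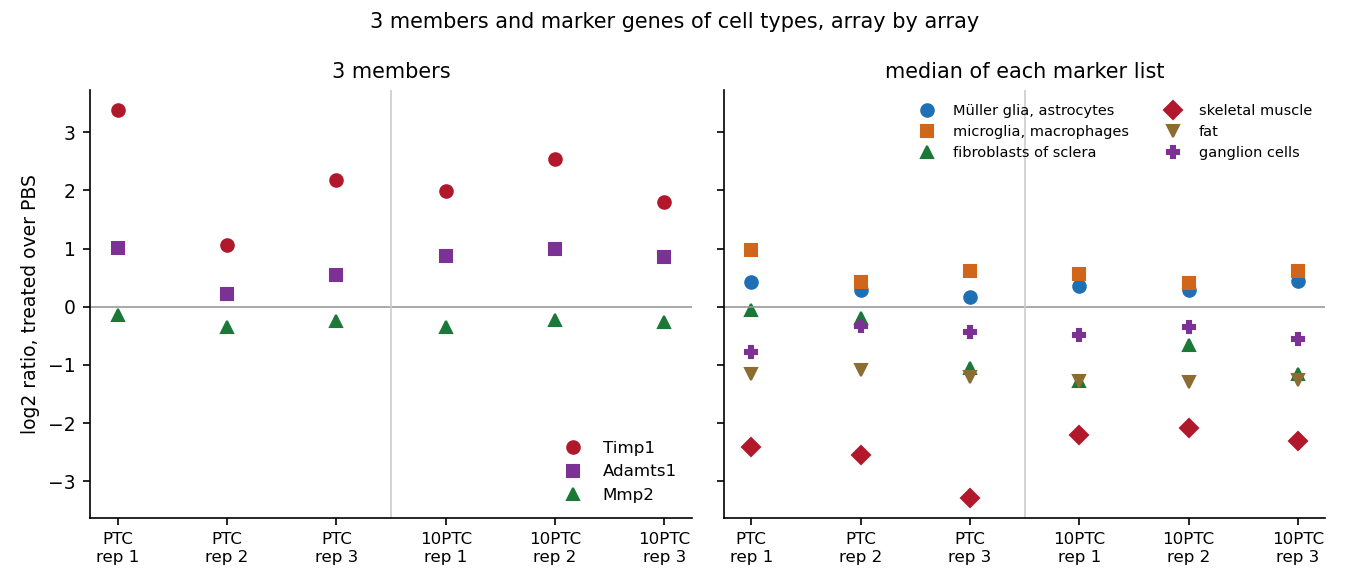
The log2 ratio of treated over PBS is plotted array by array, on the left for Timp1, Adamts1 and Mmp2 and on the right for the median of 6 lists of cell type markers, with a line between the doses. Skeletal muscle lies between -3.29 and -2.09 and fat near -1.2, the microglia list between 0.40 and 0.98, and the fibroblast list is near 0 on PTC replicates 1 and 2 and lower on the other arrays.

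Values of the remaining cell type lists follow. Their counts stand beside 16.8% of all genes higher and 16.2% lower at PTC, and 14.4% and 13.3% at 10PTC. Of 10 pigment epithelium genes 5 rose at PTC and 4 rose and 1 fell at 10PTC. Their summed levels were 90768 to 94757 in PBS, 112702 to 137659 at PTC and 90466 to 125126 at 10PTC. Lrat lay at 0.67 ± 0.21 and 0.28 ± 0.12 and Tyrp1 at 0.84 ± 0.30 and 0.54 ± 0.40. The gene that fell was Rpe65, at 0.09 ± 0.09 at PTC and -0.32 ± 0.12 at 10PTC. Of 8 endothelial genes 2 rose and 1 fell at PTC and 1 rose at 10PTC. Vwf, a clotting factor of vessels, was at 0.45 ± 0.18 and 0.70 ± 0.20. Cldn5, which fell at PTC, was at -0.31 ± 0.07 and 0.07 ± 0.17. Of 8 pericyte and smooth muscle genes 3 rose and 1 fell at PTC and 1 rose and 1 fell at 10PTC, with Rgs5 at 0.37 ± 0.07 and 0.48 ± 0.21 and Abcc9 at -0.42 ± 0.02 and -0.30 ± 0.18. Of 5 neutrophil genes measured of 8, 0 rose at PTC and 1 at 10PTC (Mpo, 0.16 ± 0.04), with summed levels of 1951 to 2324 in PBS, 1783 to 4330 at PTC and 2128 to 2489 at 10PTC. Of 10 photoreceptor genes 1 rose and 2 fell at PTC and 1 rose and 1 fell at 10PTC. Of 10 ganglion cell genes 8 fell at each dose (medians -0.50 and -0.48), among them Tubb3, Rbpms, Pou4f1 and Isl2, with summed levels of 70259 to 75001 in PBS, 41529 to 60818 at PTC and 47523 to 55619 at 10PTC. The part of these cell types in the Timp1 and Adamts1 results was not tested.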

How the data were processed

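Scanner files of 6 two-colour Agilent arrays (design 026655, 60-base probes, mm9) were analysed. Per the labels' protocols, Trizol RNA was reverse transcribed from a T16N2 primer with labelled dCTP, PBS control in Cy3 and treated pools in Cy5. The deposited files hold spot intensity values, and log10 ratios that were used only to identify the authors' table. Per the file headers they came from Agilent Feature Extraction 10.7.3.1, while the submitters' processing notes name 9.3.2.1. The authors' deposited values hold log2 ratios of Cy5 over Cy3 (r of 0.983 to 1.00 with each array's log ratio, slope 3.32, medians -0.08 to 0.04), with centring otherwise unknown. That table served as an alternative.

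From mean signals and median backgrounds, normexp (offset 50) and within-array loess were run in limma 3.58.1 (R 4.3.3, data.table version 1.17.8), with 1377 control spots at weight 0. Outlier spots (185 to 274 per array) were left out and spots of a probe averaged. A probe was kept when 3 or more of the 6 arrays had it well above background in either channel, and 6918 of 39429 were not. The probe of highest mean intensity stood for a gene, and 19503 of 26141 names were matched to RefSeq symbols (GRCm38.p6). Levels per channel come from loess and Aquantile normalisation. The fit had a coefficient per dose, 4 residual and 3.40 prior degrees of freedom, and Benjamini-Hochberg adjustment over all genes at 0.05. No member spot was saturated. The number of arrays and signal over background limit the precision. The sources used here do not say how many control pools there were. The fit was tested on simulated data.

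The members and gene lists were chosen with earlier results of these data known. Named genes were all members, up to 4 genes of smallest p for the mean of both doses per list among those that passed at a dose, and the 5 nearest genes to each member called at both doses. A named gene is left out here. Alternatives were other background corrections and normalisations, filters, outlier and probe rules, the authors' table, each dose alone, array weights, trended and robust moderation, replicate number or slide as a block, within slides, and each array left out.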

Additional observations from a re-analysis of the deposited data

How the results depend on the processing

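Among the members' values, Timp1 and Adamts1 stayed above 0 and Mmp2 below 0 at both doses in all alternatives run, with Timp1 between 1.62 and 2.78 at PTC and between 1.89 and 2.34 at 10PTC. The calls that were lost are given with each gene, and no value changed sign where either analysis called it. Genes called at PTC numbered 8646, against 4611 with each dose fitted alone, 289 within slide 1, 1705 within slide 2 (1 PTC array, assumed to vary like the 10PTC arrays) and 4995 (without PTC replicate 3) to 7850 with an array left out. Members called there were 4, against 2 with each dose alone, 0 within slide 1 and 1 to 4 with an array left out. Genes called at 10PTC numbered 7229, against 4422 with the scanner's processed signals, 14652 after median centring, 4587 with the authors' deposited table, 12274 with array weights, 1006 with slide as a block and 1358 (without 10PTC replicate 1; 1564 without 10PTC replicate 3) to 9111 with an array left out. Members called there were 3, against 6 after median centring, 5 with each dose alone, 0 with slide as a block, 5 within slide 2 and 1 to 5 with an array left out. Slide 2 alone gives the same 10PTC fit as that dose alone, because its lone PTC array adds no spread. Between the doses 0 genes were called, and 0 to 1 with an array left out (1 without PTC replicate 3). Leaving out an array also removes degrees of freedom. With slide as a block, the slide effect came from the PTC arrays alone, because every 10PTC array was on slide 2. Its error is thereby added to the 10PTC values. The cause of the other differences was not tested.

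The replicate numbers did not pair the samples (correlations of deviations -0.27, 0.15 and 0.20). With the replicate number as a block, 4804 genes were called at 10PTC and 3 members at each dose, and Adamts4 was no longer called at PTC (0.42, adjusted p = 0.0654). Mmp12 had no value when every array had to show it well above background in each channel. Fits within slide 1 exist for PTC only, and the comparison of doses was not run with each dose alone or within slide 1. Signal limits Mmp12, whose probes were near background, and Timp4, whose probe was nearly as dim.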
